A study of Mus musculus with 5 samples.

Results

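The 10 genes examined here bind, sense or move zinc; they were measured in mouse hearts: the metallothionein genes Mt1, Mt2 and Mt3, the zinc-sensing transcription factor gene Mtf1, and the zinc transporter genes Slc30a1, Slc30a5, Slc39a1, Slc39a7, Slc39a8 and Slc39a14. The 10 were chosen by name, and 9 of the 10 were among the 22180 genes with a probe that carried their symbol alone. Slc30a1 shared both of its listed probes with another gene and was not analysed here. The hearts came from wild-type C57Bl6J mice at zeitgeber time 12, in hours from lights on. Each was perfused on a Langendorff apparatus, which supplies the isolated heart with buffer through the aorta. It was stabilised for 20 min, left without flow for 20 min and reperfused for 20 min before freezing. The antagonist group (n = 3 hearts) received an antagonist of REV-ERB alpha, a repressor of the circadian clock, intraperitoneally at 10 µM, 4 h and 1 h before the perfusion protocol. The sham group (n = 2 hearts) had the same protocol but no antagonist. Neither the compound, a vehicle nor the animals' age is given in the labels. All values come from reperfused tissue; no heart without ischemia is compared.

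Metallothioneins are small cysteine-rich proteins that bind zinc and copper in the cytosol. Of their genes, Mt1 and Mt2 are switched on by metals, glucocorticoids and oxidative stress. MTF1 binds metal response elements in the promoters of Mt1 and Mt2 when free zinc rises. Transporters of the SLC30 (ZnT) family move zinc out of the cytosol, across the plasma membrane or into organelles, and those of the SLC39 (ZIP) family move it into the cytosol. Zinc released within heart muscle cells has been studied as a feature of ischemia and reperfusion.

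The promoters of the 3 metallothionein genes are shown because Mt2 and Mt1 are neighbouring genes with the same inducers. Mt3, Mt2 and Mt1 lie in this order on chromosome 8 behind Mt4. The RefSeq promoter windows of build GRCm38.p6 run from 250 bases before to 50 bases after the annotated start. Capitals mark the core of the metal response element, searched as TGCACNC or TGCGCNC on both strands. The windows, all on the plus strand, are chr8:94178839-94179138 for Mt1, chr8:94172368-94172667 for Mt2 and chr8:94152357-94152656 for Mt3.
Mt1: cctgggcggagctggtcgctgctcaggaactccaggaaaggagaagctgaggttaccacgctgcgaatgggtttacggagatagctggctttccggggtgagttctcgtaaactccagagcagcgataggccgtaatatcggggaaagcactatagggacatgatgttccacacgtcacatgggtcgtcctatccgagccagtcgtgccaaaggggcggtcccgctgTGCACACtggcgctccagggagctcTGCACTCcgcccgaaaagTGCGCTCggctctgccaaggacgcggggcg
Mt2: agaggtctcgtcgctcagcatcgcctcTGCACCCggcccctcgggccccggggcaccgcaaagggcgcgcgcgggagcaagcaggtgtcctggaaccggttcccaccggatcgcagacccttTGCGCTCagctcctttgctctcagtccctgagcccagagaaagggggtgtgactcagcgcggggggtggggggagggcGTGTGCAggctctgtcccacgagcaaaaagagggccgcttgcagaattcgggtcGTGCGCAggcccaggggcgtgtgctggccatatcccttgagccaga
Mt3: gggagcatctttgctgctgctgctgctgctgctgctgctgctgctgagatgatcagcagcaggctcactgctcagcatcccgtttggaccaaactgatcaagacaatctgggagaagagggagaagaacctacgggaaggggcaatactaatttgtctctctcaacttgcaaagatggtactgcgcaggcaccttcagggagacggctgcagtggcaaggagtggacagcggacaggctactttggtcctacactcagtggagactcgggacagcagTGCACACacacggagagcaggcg

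The Mt2 window held 4 matches to the metal response element core, the Mt1 window 3 and the Mt3 window 1. Of the 32851 promoter windows in the table, 25.7% held at least 1 match, 1.97% at least 3 and 0.517% at least 4. The Slc30a1 window held 2 matches, those of Slc30a5 and of the second start of Slc39a8 held 1 each, and those of Mtf1, Slc39a1, Slc39a7 and the first start of Slc39a8 held 0. Other motifs were searched in the same way. The Mt1 window held the 1 match among these windows to a glucocorticoid response element searched as GNACA and TGTNC with 3 bases between them (GGACATGATGTTC, 94 bases before the start), which 0.475% of all windows contain. The Mt2 window held an antioxidant response element core, TGACNNNGC, as TGACTCAGC 79 bases before the start. The windows of Slc30a1, Slc30a5, Slc39a1 and the first start of Slc39a8 also held 1 match each to this core. Of all windows, 12.4% hold at least 1. The half-site of REV-ERB receptors, AGGTCA, was found once in each of the 2 Slc39a8 windows and in 16.3% of all windows. The E-box CACGTG was found in the Slc30a5 window, in the window of the second start of Slc39a8 and in 7.15% of all windows. None of the matches in these windows overlapped another. A match is a run of letters, and binding was not measured. Distances count from the annotated start, and whether transcription of Mt1 begins there in heart was not tested.

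**Figure D1:**
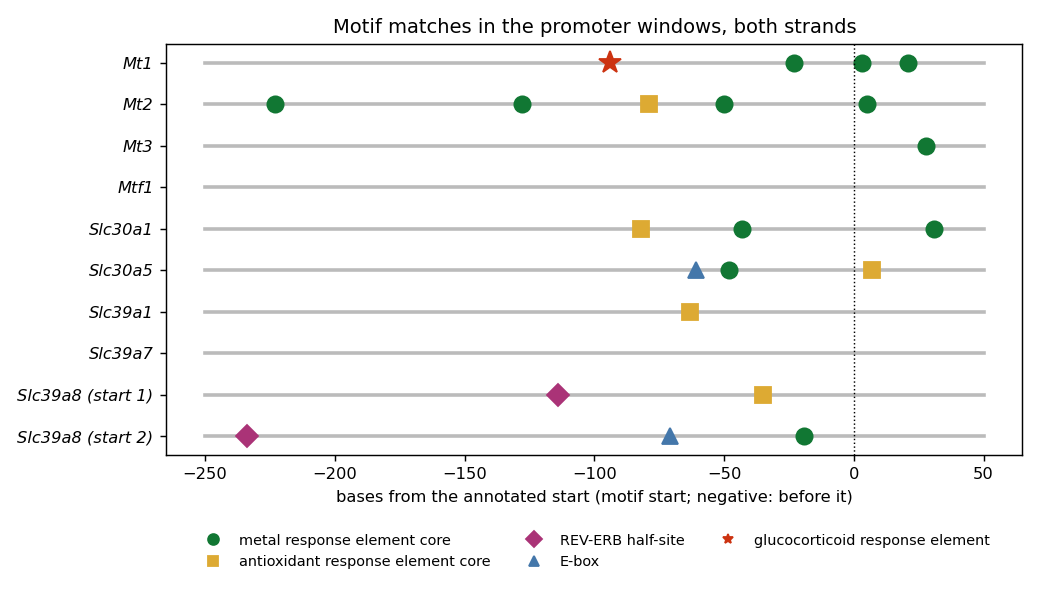
Motif matches in the promoter windows of the 9 genes with an entry, with the distance from the annotated start in bases on the x axis, 1 line per window and 1 symbol per match on either strand. Metal response element cores are most frequent in the Mt2 window (4) and the Mt1 window (3), and AGGTCA lies only in the 2 windows of Slc39a8 among those shown.

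Each array gave log2 values made with RMA (robust multi-array average) for 41345 probes, with array medians from 3.92 to 3.95. The 10 heart muscle markers, such as Myh6 and Tnnt2, had a mean log2 value of 11.6 to 11.7 on every array. The arrays were not alike in other respects. Sham replicate 1 deviated most from the other 4 arrays for 5144 of the 14351 genes without a tie, against 1878 to 2838 for any other array. Antagonist replicate 2 had the highest value for 5 of 6 atrial markers (mean log2 value 9.76, against 6.90 to 7.55) and for 4 of 5 tested fat cell markers (6.04, against 3.87 to 4.17). The 6 fibroblast markers were lower in the antagonist hearts on average for 5 and equal for 1, with a median difference of -0.20 (-0.04 without sham replicate 2 and -0.36 without sham replicate 1). Their mean log2 value was 7.68 and 7.94 in sham and 7.54 to 7.70 in antagonist hearts. Of 6 endothelial markers 3 had a higher and 3 a lower mean, with a mean log2 value of 8.26 and 8.40 in sham and 8.24 to 8.38 in antagonist hearts. Among them Cdh5 had groups apart, with the antagonist lower (difference -0.23 ± 0.05, limma SE; adjusted p = 0.64). Groups were apart in this direction for 1 of 6 endothelial markers and 2 of 6 fibroblast markers (Lum and Tcf21), against 6.33% of all genes. The part of these markers in the members' values was not tested. All 9 measured members lay above the level filter of 3.42 and were tested with limma together with all 15294 genes above it.

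The question of the comparison is how blocking REV-ERB alpha before ischemia and reperfusion alters transcript levels. The mean was higher in the antagonist hearts for 8 of the 9 measured members, against 47.7% of all genes, and lower for Mt3. For Mt2, Mt1, Mtf1, Slc30a5 and Slc39a14 every antagonist heart lay above both sham hearts. No member passed the test: 0 of 9 reached a limma adjusted p under 0.05 (smallest 0.64), as did 0% of the 15294 genes. At an unadjusted limma p under 0.05 and higher were 4 of the 9, Mt2, Mtf1, Slc39a14 and Slc30a5, compared with 2.23% of all genes, and lower were 0 of 9, compared with 2.37%. The groups did not overlap, with the antagonist higher, for 5 of 9 members and for 6.19% of all genes, and in the opposite direction for 0 of 9 and for 6.33%. Exact ties are frequent in this table, and a tie between a sham and an antagonist array prevents such a gap. Among genes with 5 different values the antagonist group lay above sham without overlap in 15.1%, and in 3 of the 4 members of that kind (Mt1, Mt2 and Slc39a14, but not Slc39a8). The median log2 difference was 0.16 over the 9 members and 0 over all genes. The members were named with earlier results of these data known, so these shares are descriptive.

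**Figure D2:**
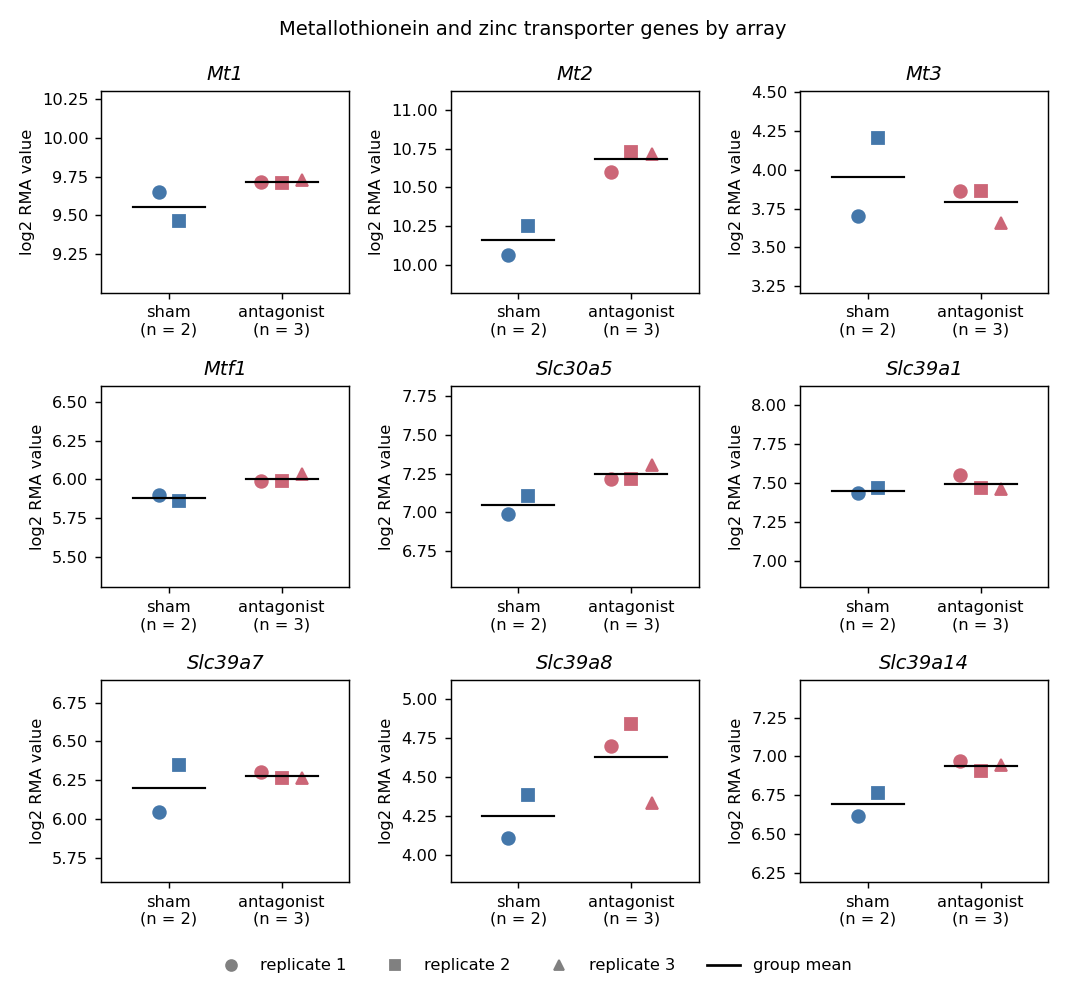
Log2 RMA values of the 9 measured members, 1 panel per gene, with sham hearts (n = 2) in blue, antagonist hearts (n = 3) in red, a symbol per replicate number and a line at each group mean; all panels span the same log2 range. The antagonist hearts lie above both sham hearts for Mt1, Mt2, Mtf1, Slc30a5 and Slc39a14, and the groups overlap for the other 4.

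Mt2 (Entrez Gene 17750) had the largest difference of the members. It measured 10.06 and 10.25 in sham replicates 1 and 2, and 10.60, 10.73 and 10.71 in antagonist replicates 1, 2 and 3. The 3 antagonist hearts lay close together, and the lowest of them was 0.35 above the higher sham heart, compared with a distance of 0.19 between the sham hearts. The log2 difference was 0.52 ± 0.08 (limma SE), or 1.44-fold, with a limma adjusted p of 0.64. An exact two-sided permutation test, with 10 ways to divide 5 arrays into 2 and 3, gave p = 0.10, the smallest this design allows. Of all tested genes, 0.994% had a larger difference in either direction. With single arrays left out the difference ranged from 0.43 (without sham replicate 1) to 0.62 (without sham replicate 2), and it was 0.50 without antagonist replicate 2. In whole tissue, more cells of a type and more RNA per cell cannot be told apart.

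Mt1 (Entrez Gene 17748), its neighbour on the chromosome, differed by less. Its values were 9.65 and 9.46 in sham replicates 1 and 2, and 9.72, 9.71 and 9.73 in antagonist replicates 1, 2 and 3. The antagonist hearts were almost identical, and sham replicate 1 lay only 0.06 below the lowest of them, while the sham hearts were 0.19 apart. The log2 difference was 0.16 ± 0.06 (limma SE), or 1.12-fold, with a limma adjusted p of 0.64 and an exact permutation p of 0.10. It was 0.07 without sham replicate 2 and 0.25 without sham replicate 1. In the latter case limma's adjusted p was 0.013, with the 1 remaining sham array assumed to vary like the others. The sham hearts differed in opposite directions for the 2 genes, with Mt2 higher in replicate 2 and Mt1 higher in replicate 1.

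The difference between groups was larger for Mt2 than for Mt1. The log2 value of Mt2 minus that of Mt1 within an array, used only to compare arrays, was 0.41 and 0.79 in sham replicates 1 and 2 and 0.88, 1.02 and 0.99 in antagonist replicates 1, 2 and 3. The group means of this quantity differed by 0.36 (exact two-sided permutation test, p = 0.10, the smallest possible). The antagonist hearts lay above both sham hearts, with sham replicate 2 nearer to them than to sham replicate 1. The coding sequences of Mt1 and Mt2 are alike, and cross-hybridisation between their probes was not tested.

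Mt3 (Entrez Gene 17751), known mainly from brain, was near the low end of the measured range. It measured 3.70 and 4.21 in sham replicates 1 and 2, and 3.86, 3.86 and 3.66 in antagonist replicates 1, 2 and 3. The sham hearts enclosed 2 of the 3 antagonist hearts, and all but sham replicate 2 lay below the array medians of 3.92 to 3.95. The log2 difference was -0.16 ± 0.19 (limma SE; adjusted p = 0.74; exact permutation p = 0.60), and it was 0.09 without sham replicate 2 and -0.41 without sham replicate 1. Its direction thus rested on a single sham heart. The 5 tested neural and glial markers had mean log2 values of 3.68 to 3.73 in sham and 3.61 to 3.76 in antagonist hearts, 3 of them with a higher mean in the antagonist group. Mt4, a metallothionein of stratified epithelium, lay under the level filter, at 3.14 and 3.42 in sham and 3.19 to 3.42 in antagonist hearts.

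Mtf1 (Entrez Gene 17764), which encodes the zinc sensor that binds metal response elements, separated the groups by a small amount. Its values were 5.90 and 5.86 in sham replicates 1 and 2, and 5.99, 5.99 and 6.03 in antagonist replicates 1, 2 and 3. The first 2 antagonist values were exactly equal, and the gap between the groups (0.09) was larger than the spread within either (0.04 in sham and 0.05 with the antagonist). The log2 difference was 0.12 ± 0.02 (limma SE), or 1.09-fold, with a limma adjusted p of 0.64 and an exact permutation p of 0.10. It stayed between 0.10 and 0.14 with any single array left out. Tied values lower this SE, so it may understate how much hearts differ.

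Of the transporters that move zinc out of the cytosol, Slc30a5 (Entrez Gene 69048) was the member measured. Its protein, ZnT5, pairs with ZnT6 and supplies zinc to enzymes of the early secretory pathway. Slc30a5 measured 6.99 and 7.11 in sham replicates 1 and 2, and 7.22, 7.22 and 7.31 in antagonist replicates 1, 2 and 3. The antagonist hearts lay above both sham hearts by at least 0.11, about the distance between the sham hearts (0.12). The log2 difference was 0.20 ± 0.05 (limma SE), or 1.15-fold (limma adjusted p = 0.64; exact permutation p = 0.10). It was 0.14 without sham replicate 1 and 0.26 without sham replicate 2. Antagonist replicates 1 and 2 were exactly equal, and tied values lower this SE. Slc30a6, the gene of the partner protein, measured 7.15 and 6.97 in sham and 7.23, 7.15 and 7.14 in antagonist hearts, so that its groups overlapped (difference 0.11 ± 0.07, limma SE, or 0.20 without sham replicate 1 and 0.03 without sham replicate 2).

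Among the importers that are members, Slc39a14 (Entrez Gene 213053) was the one whose groups were apart. It encodes ZIP14, which carries zinc, iron and manganese and is induced in liver in the acute-phase response. Its values were 6.62 and 6.77 in sham replicates 1 and 2, and 6.97, 6.91 and 6.94 in antagonist replicates 1, 2 and 3. The 3 antagonist hearts spanned 0.06, and the lowest lay 0.14 above the higher sham heart, compared with 0.15 between the sham hearts. The log2 difference was 0.25 ± 0.06 (limma SE), or 1.19-fold (limma adjusted p = 0.64; exact permutation p = 0.10). It was 0.17 without sham replicate 1 and 0.32 without sham replicate 2, where limma's adjusted p was 0.039 with a lone sham array.

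Slc39a8 (Entrez Gene 67547) encodes ZIP8, a close relative of ZIP14 that also carries manganese. Its mean difference, 0.38 ± 0.20 (limma SE) or 1.30-fold, was larger than that of Slc39a14, but its groups overlapped. It measured 4.11 and 4.38 in sham replicates 1 and 2, and 4.70, 4.84 and 4.33 in antagonist replicates 1, 2 and 3. Antagonist replicate 3 lay below sham replicate 2, and the antagonist hearts were 0.51 apart. The limma adjusted p was 0.64 and the exact permutation p was 0.30. The difference was 0.24 without sham replicate 1, 0.27 without antagonist replicate 2 and 0.53 without antagonist replicate 3. The highest value fell on the array with the high atrial and fat cell markers. The 7 macrophage markers had a mean log2 value of 7.05 and 7.24 in sham and 7.26, 7.28 and 7.06 in antagonist replicates 1, 2 and 3, with 4 higher and 3 lower on average in the antagonist group. Whether these cells bear on the Slc39a8 values was not tested.

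The other importers among the members showed no separation. Slc39a1 (Entrez Gene 30791), which encodes ZIP1 of the plasma membrane, measured 7.43 and 7.47 in sham replicates 1 and 2 and 7.55, 7.47 and 7.46 in antagonist replicates 1, 2 and 3. Of these 5 values 4 lay within 0.04 of each other, and antagonist replicate 1 stood above them (difference 0.04 ± 0.04, limma SE, or 0.02 without antagonist replicate 1; exact permutation p = 0.60). Slc39a7 (Entrez Gene 14977) encodes ZIP7, which releases zinc from the endoplasmic reticulum. It measured 6.05 and 6.35 in sham replicates 1 and 2, and 6.30, 6.26 and 6.26 in antagonist replicates 1, 2 and 3. The 3 antagonist hearts lay between the sham hearts, so the sign of the difference (0.08 ± 0.10, limma SE; exact permutation p = 0.70) turned to -0.07 without sham replicate 1. Without sham replicate 2 it was 0.23, with a limma adjusted p of 0.038 against the lone sham array.

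Sham replicate 1 had the lowest value for 6 of the 9 members, Mt2, Slc30a5, Slc39a1, Slc39a7, Slc39a8 and Slc39a14, and sham replicate 2 for Mt1 and Mtf1. The size of most differences therefore depended on which sham heart was used. Without sham replicate 1, 7 of 9 members were higher in the antagonist hearts. Every antagonist heart then lay above the 1 remaining sham heart for 5 members, against 19.6% of all genes, and below it for 2 (Mt3 and Slc39a7), against 22.5%. Without sham replicate 2 all 9 were higher, 8 of them without overlap, against 28.1% of all genes.

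**Figure D3:**
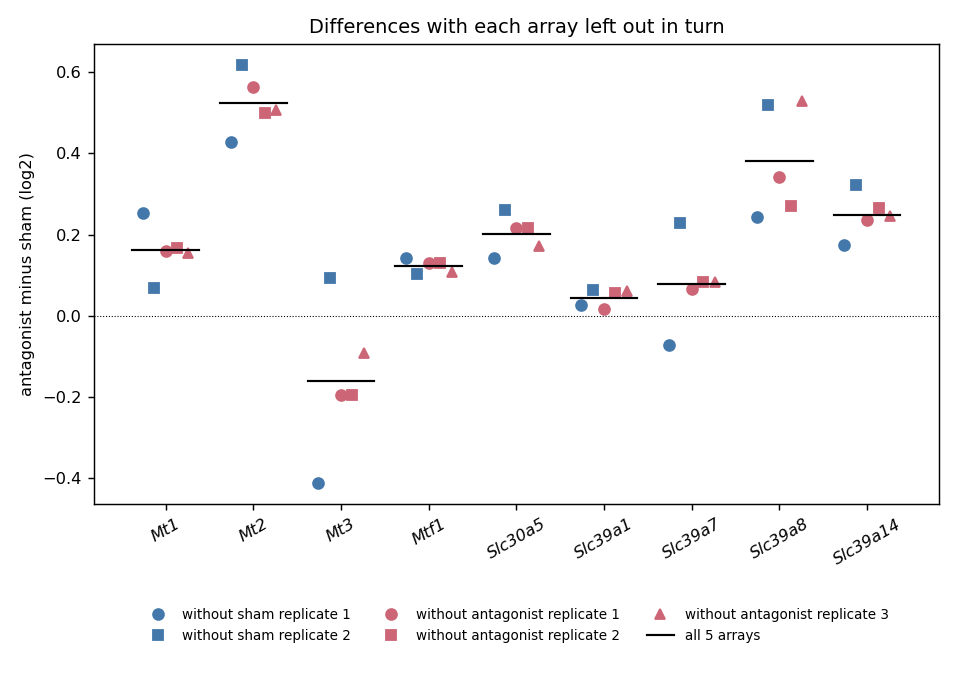
Log2 difference, antagonist minus sham, for the 9 measured members with all 5 arrays (black line) and with each array left out in turn (symbols, colour by the group of the array left out). Mt2 ranges from 0.43 to 0.62, while Mt3 and Slc39a7 each have 1 symbol on the other side of 0.

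The rest of both transporter families had a smaller median difference. Of 19 further genes (Mt4 and the other SLC30 and SLC39 genes), 15 were tested. Slc30a10 had no probe of its own, and Slc30a8, Slc39a12 and Mt4 lay below the level filter. None of the 15 passed a limma adjusted p under 0.05 in either direction, and at an unadjusted p under 0.05 there was 1, which was higher, compared with 2.23% of all genes. Of the 15, 10 had a higher and 5 a lower mean in the antagonist hearts, with differences from -0.07 to 0.27 and a median of 0.03, compared with 0.16 for the 9 members. The groups were apart, with the antagonist higher, for 3 of the 15 and for 6.19% of all genes. These 3, Slc39a4, Slc39a6 and Slc39a9, each had 5 different values. So did Slc39a11, whose groups overlapped, and no other of the 15. Among all genes with 5 different values the share was 15.1%.

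Slc39a9, which encodes ZIP9 of the Golgi, was the clearest of these 3. It measured 6.49 and 6.56 in sham replicates 1 and 2, and 6.74, 6.68 and 6.71 in antagonist replicates 1, 2 and 3. The gap resembled that of Slc39a14, with a log2 difference of 0.19 ± 0.03 (limma SE; limma adjusted p = 0.64; exact permutation p = 0.10). Slc39a6, the ZIP6 gene, measured 5.32 and 5.31 in sham and 5.36, 5.49 and 5.45 in antagonist hearts (difference 0.12 ± 0.05, limma SE). Slc39a4, the gene of the intestinal zinc importer, measured 3.50 and 3.52 in sham and 3.54, 3.72 and 3.55 in antagonist hearts, below the array medians throughout. Its difference was 0.09, or 0.04 without antagonist replicate 2. Slc39a5 had a larger mean difference (0.27 ± 0.16, limma SE), but sham replicate 1 (4.67) was level with antagonist replicate 2 (4.67), and the difference was 0.05 without sham replicate 2.

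**Figure D4:**
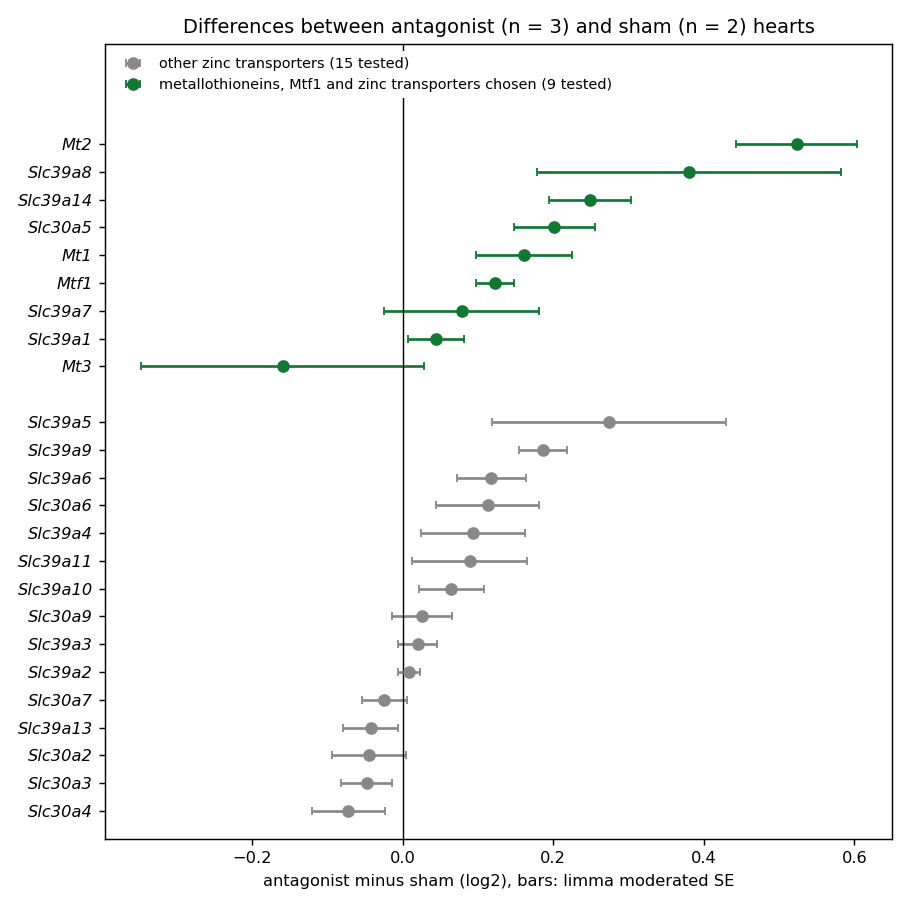
Log2 difference, antagonist (n = 3) minus sham (n = 2), with limma's moderated SE as bars, for the 9 measured members (green) and the 15 other tested zinc transporter genes (grey), each ordered by size. Mt2 (0.52) lies farthest to the right, and the other transporters lie between -0.07 and 0.27.

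Genes that handle copper, iron and manganese lay around a small median difference. Of 26 tested, 0 passed in either direction, 17 had a higher and 9 a lower mean, and the median difference was 0.05. Without sham replicate 1, 12 had a higher and 12 a lower mean, and the median was 0. The antagonist hearts lay above both sham hearts for 2 of the 26, against 6.19% of all genes, and below both for 0, against 6.33%. Slc40a1, the iron exporter gene, differed by 0.19 ± 0.07 (limma SE) with the groups apart, or by 0.10 without sham replicate 1. Slc25a37, the gene of a mitochondrial iron carrier, differed by -0.16 ± 0.09 with overlapping groups, or by -0.27 without sham replicate 1 and -0.05 without sham replicate 2.

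Lists of genes with the inducers named for Mt1 and Mt2 are given for their values beside Mt2. Of 16 glucocorticoid-responsive genes, 13 had a higher mean in the antagonist hearts and 0 passed, with a median difference of 0.28. Fkbp5, whose protein tempers the glucocorticoid receptor, measured 5.91 on both sham arrays and 6.88, 6.66 and 6.98 in antagonist replicates 1, 2 and 3. Cdkn1a, the p21 gene, differed by 0.74 ± 0.11 (limma SE). Groups were apart with the antagonist higher for 7 of the 16, Fkbp5 and Cdkn1a among them, against 6.19% of all genes. They were apart with the antagonist lower for 1, Dusp1 (difference -0.05), against 6.33% of all genes. Per1 (-0.06) and Klf9 (-0.04) also had lower means.

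Of 22 genes of IL-6 and STAT3 signalling and the acute phase, 21 had a higher mean and 0 passed, with a median difference of 0.17. Without sham replicate 1, 16 were higher with a median of 0.09, and without antagonist replicate 2, 16 were higher and 6 lower with a median of 0.12. Serpina3n, an acute-phase protease inhibitor gene, measured 7.13 and 6.83 in sham and 8.05, 8.17 and 7.79 in antagonist replicates 1, 2 and 3, and Osmr, the oncostatin M receptor gene, differed by 0.77 ± 0.14 (limma SE). The highest value of 15 of the 22 fell on antagonist replicate 2, where atrial and fat cell markers were also highest. Of 16 tested NRF2-regulated and antioxidant genes, 10 had a higher and 6 a lower mean, 0 passed, and the median was 0.13. Without sham replicate 1 this list had 7 higher and 9 lower means and a median of -0.0083. With all 5 arrays the antagonist hearts lay above both sham hearts for 3 of these 16, against 6.19% of all genes. They lay below both for 1, against 6.33%. Txnrd1, the thioredoxin reductase gene, differed by 0.36 ± 0.11 (limma SE) with the groups apart, and Txn1, the thioredoxin gene, by 0.19 ± 0.09 with overlapping groups. Without sham replicate 1 these were 0.23 and 0.09.

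The genes whose values followed those of Mt2 most closely were sought among the 3991 genes with 5 different values, by the root-mean-square distance between log2 profiles centred on their means over the 5 arrays. The nearest were Pgf, the placental growth factor gene (distance 0.051), the small nucleolar RNA genes Snord8 (0.055) and Snord52 (0.062), and B3galnt2 (0.056) and Man2a1 (0.063), which encode glycan-processing enzymes. The median distance over all compared genes was 0.29, and the root-mean-square deviation of Mt2 itself was 0.27. Pgf measured 4.13 and 4.28 in sham and 4.58, 4.85 and 4.72 in antagonist replicates 1, 2 and 3, the same order of hearts as for Mt2. The nearest to Slc39a14 were Bri3 (0.019), Pkdcc (0.026), Cct8 (0.027), Susd6 (0.027) and Dpf2 (0.027), against a median of 0.18. The ranking rests on 5 arrays and is a description.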

How the data were processed

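Total RNA (300 ng) of 5 hearts was labelled with the manufacturer's kit and hybridised to Affymetrix arrays, per the labels' protocols. The deposited log2 values were made by the authors with RMA (background correction, quantile normalization, median polish), per the submitters' processing notes. Version, probe set library and build: not given in the sources used here. Columns were matched by sample name. Probes were named from the platform annotation: 23521 had 1 symbol, 1814 several (not used) and 16010 were not listed. RefSeq (GRCm38.p6) was used for names (23328 probes matched, 0 symbols changed) and promoter sequences (9 of 10 members matched; Slc39a14 did not).

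For each symbol the probe of highest mean was kept. Genes whose mean reached 3.42, the 40th percentile over probes, went into limma 3.58.1 in R 4.3.3 (lmFit, eBayes, two-sided, no covariates), Benjamini-Hochberg adjusted over 15294 genes at 0.05. Differences are antagonist minus sham. Fewer than 5 different values over the 5 arrays were found in 73.9% of genes. Single values also had an exact two-sided permutation test over 10 divisions of the arrays. The fit was checked on simulated normal values, which have no ties. That check required only that log2 shifts of 2, larger than any member difference, were recovered in sign and size. Members and lists were chosen with earlier results of these data known. Named genes were all members, listed zinc genes with groups apart or among the 4 smallest p, the 2 smallest p of each other list, and the 5 nearest profiles of Mt2 and Slc39a14. Also named, outside this rule, were the glucocorticoid-responsive genes with a lower mean, Slc39a11, untested zinc genes and some cell type markers. Nothing says whether the hearts were processed together, so p-values measure only the spread between these arrays, each labelled a biological replicate. Alternatives covered the level filter, normalization, probe summary, eBayes options, array weights, a block for replicate number, and the omission of single arrays.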

Additional observations from a re-analysis of the deposited data

How the results depend on the processing

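Under the 15 alternatives, 123 of 128 values for single members kept their direction and stayed on the same side of the threshold. The exceptions all came from leaving out a sham array, after which the lone sham is assumed to vary like the other arrays. Without sham replicate 1, Slc39a7 turned to -0.073 and Mt1 (0.25) passed; without sham replicate 2, Mt3 turned to 0.093 (its other extreme, -0.41, came without sham replicate 1), and Slc39a7 (0.23) and Slc39a14 (0.32) passed. With single arrays left out, genes called ranged from 0 to 2058 (1319, or 8.62%, without sham replicate 1 and 2058, or 13.5%, without sham replicate 2), members called from 0 to 2, members with groups apart in either direction from 5 to 8 (7 without sham replicate 1, 2 of them with the antagonist lower) and members higher from 7 to 9. Over all genes, the shares with groups apart were 19.6% higher and 22.5% lower without sham replicate 1. They were 28.1% higher and 24.6% lower without sham replicate 2. With an antagonist array left out they were 8.37% to 9.25% higher and 8.66% to 9.41% lower. With only genes of 5 different values, 4 members remained, of which 3 had groups apart and 4 were higher. With no array left out, adjusted p of the members lay between 0.40 and 0.999 and 0 were called. Gene lists with single arrays left out were added after seeing the data. The replicate block gave Mt2 0.51 and Slc39a14 0.25, with 0 genes and 0 members called; same-numbered arrays deviated with correlations of -0.11 and 0.03 over genes, so the numbers were not taken as pairs. The number of arrays, and the low values of Mt3 and Slc39a8, limit precision.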
